A study of Homo sapiens with 5 samples.

Results

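Origins called by ini-seq 2 after a reaction of 15 minutes were compared with those called after 3 hours. Ini-seq 2 starts DNA replication in isolated nuclei in the test tube, lets new DNA incorporate Br-dUTP in place of dTTP, separates replicated heavy-light (HL) from unreplicated light-light (LL) DNA by density, and calls an origin where HL reads outweigh LL reads. Both reactions used late G1 nuclei of mimosine-arrested EJ30 cells, an established human bladder carcinoma line, with cytosolic extract of proliferating HeLa cells and no further agent; the labels call the 15-minute sample a control. Each time is represented by 1 list. The 3-hour list pools 2 biological replicates, whereas the sources used here do not give the number behind the 15-minute list. The 15-minute list held 10181 origins and the 3-hour list 23905, which makes 34086 of the 366709 regions in the whole series. Origins were paired when they shared at least 1 bp, and groups of overlapping origins were sorted into 1 to 1 pairs, merges (several 15-minute origins inside 1 3-hour origin), splits (1 15-minute origin over several 3-hour origins), lost origins (15 minutes only) and gained origins (3 hours only). With 1 list per time, no difference could be set against replicate error and no p-value is given. Shares carry exact Clopper-Pearson 95% intervals in parentheses, which cover counting error over origins only. The 3-hour reaction was also sequenced more deeply, so that reaction time, sequencing depth and pooling cannot be told apart in any value below.

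Replication starts where the origin recognition complex has loaded the MCM helicase in G1, and the helicase is switched on in S phase so that a fork leaves in each direction. In mammalian cells origins have no fixed sequence and lie preferentially at CpG islands and gene starts, where chromatin is open. In an origin list made by density labelling, a called interval is DNA enriched in HL over LL reads, each scaled to its library total. Its borders depend on how far forks have travelled as well as on where they started.

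A few stretches illustrate the DNA that entered and left the list between 15 minutes and 3 hours. All are read from the plus strand of hg38, with every CG dinucleotide in capitals. The first set left the list. Each is the 300 bases of highest GC content in its gap, lost origin or trim, clear of annotated UTRs. The contrast with the second set is therefore partly fixed by this choice. SKI and CASKIN1 are 2 of the 5 splits named, and at CUX1, another of them, the gap was poorer in GC than the pieces. At the start of SKI, which encodes a co-repressor of TGF-β signalling, 1 origin at 15 minutes (chr1:2226801-2230000) became 2 at 3 hours. The stretch shown lay in the gap between them, overlapping the annotated gene but none of its exons. At CASKIN1, a synaptic scaffold gene, the stretch lay in a coding exon in the gap of a split. An intergenic origin on chromosome 19 with a 15-minute score among the 5 highest of all lost origins was absent at 3 hours. The JAG2 stretch was trimmed from the upstream end of an origin at the start of this Notch ligand gene. The 4 stretches had GC contents of 88.3%, 84.3%, 87.3% and 78.7% and held 68, 56, 56 and 40 CG dinucleotides in 300 bases.
SKI split gap, chr1:2228001-2228300: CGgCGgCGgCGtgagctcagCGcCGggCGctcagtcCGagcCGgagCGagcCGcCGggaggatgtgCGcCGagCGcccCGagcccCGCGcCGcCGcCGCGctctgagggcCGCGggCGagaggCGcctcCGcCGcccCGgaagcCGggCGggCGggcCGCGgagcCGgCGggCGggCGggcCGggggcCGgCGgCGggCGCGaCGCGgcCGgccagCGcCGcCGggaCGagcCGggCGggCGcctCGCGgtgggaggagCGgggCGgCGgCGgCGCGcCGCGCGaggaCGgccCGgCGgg
CASKIN1 split gap, chr16:2179001-2179300: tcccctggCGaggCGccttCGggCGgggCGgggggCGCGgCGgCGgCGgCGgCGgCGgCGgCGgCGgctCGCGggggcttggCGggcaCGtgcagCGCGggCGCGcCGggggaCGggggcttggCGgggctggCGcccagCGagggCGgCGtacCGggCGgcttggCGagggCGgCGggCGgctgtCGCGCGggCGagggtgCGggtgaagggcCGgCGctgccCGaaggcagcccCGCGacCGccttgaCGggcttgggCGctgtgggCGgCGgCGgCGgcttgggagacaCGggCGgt
Lost origin, chr19:14206501-14206800: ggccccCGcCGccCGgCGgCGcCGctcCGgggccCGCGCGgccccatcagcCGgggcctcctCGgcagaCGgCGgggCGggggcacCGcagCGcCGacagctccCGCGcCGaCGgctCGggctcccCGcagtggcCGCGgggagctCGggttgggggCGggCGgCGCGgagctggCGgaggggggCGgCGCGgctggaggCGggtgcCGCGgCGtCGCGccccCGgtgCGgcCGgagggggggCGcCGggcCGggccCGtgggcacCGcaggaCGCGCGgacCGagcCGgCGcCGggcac
JAG2 trimmed upstream, chr14:105168901-105169200: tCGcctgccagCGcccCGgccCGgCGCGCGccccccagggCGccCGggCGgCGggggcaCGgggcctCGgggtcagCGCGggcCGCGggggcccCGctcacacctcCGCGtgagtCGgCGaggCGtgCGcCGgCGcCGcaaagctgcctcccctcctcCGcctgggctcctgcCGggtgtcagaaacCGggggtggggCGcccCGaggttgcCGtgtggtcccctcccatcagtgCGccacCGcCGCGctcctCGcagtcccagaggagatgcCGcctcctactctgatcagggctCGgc

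The second set entered the list. The stretches of JAG2 and of COL9A3, which encodes a chain of type IX collagen, were added downstream of the gene start, both without overlap to an annotated exon. They had a GC content of 63.7% and 63.3%, with 17 and 7 CG dinucleotides. The DAB2IP stretch is a whole gained origin with the highest efficiency on the scale, 1, inside this gene for a Ras GTPase-activating protein, and had a GC content of 76.3%.
JAG2 added downstream, chr14:105167101-105167400: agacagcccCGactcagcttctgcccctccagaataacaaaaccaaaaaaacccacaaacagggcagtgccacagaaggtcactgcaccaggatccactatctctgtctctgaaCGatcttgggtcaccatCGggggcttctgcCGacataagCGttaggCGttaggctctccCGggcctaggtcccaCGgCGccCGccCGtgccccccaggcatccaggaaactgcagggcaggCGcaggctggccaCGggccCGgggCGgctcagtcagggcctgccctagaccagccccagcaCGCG
COL9A3 added downstream, chr20:62817901-62818200: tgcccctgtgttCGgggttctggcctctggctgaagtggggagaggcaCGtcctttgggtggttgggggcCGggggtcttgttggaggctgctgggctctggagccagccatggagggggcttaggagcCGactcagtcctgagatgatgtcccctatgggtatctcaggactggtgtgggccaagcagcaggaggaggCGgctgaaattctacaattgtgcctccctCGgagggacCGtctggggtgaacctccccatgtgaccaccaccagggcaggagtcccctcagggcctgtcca
DAB2IP gained origin, chr9:121736301-121736600: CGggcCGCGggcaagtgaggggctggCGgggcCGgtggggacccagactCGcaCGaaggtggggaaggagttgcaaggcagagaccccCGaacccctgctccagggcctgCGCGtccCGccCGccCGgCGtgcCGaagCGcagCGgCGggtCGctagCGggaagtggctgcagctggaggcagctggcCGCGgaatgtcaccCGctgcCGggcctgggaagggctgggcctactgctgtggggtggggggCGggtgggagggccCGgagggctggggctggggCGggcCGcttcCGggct

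Most 15-minute origins were still in the list at 3 hours, and most 3-hour origins lay elsewhere. Of the 10181 origins at 15 minutes, 9252 (90.9%) had 1 partner, 340 were merged into 165 origins, 87 were split into 176, 4 fell into 2 groups of mixed overlap and 498 (4.89%, 4.48 to 5.33) were lost. Of the 23905 origins at 3 hours, 14308 (59.9%, 59.2 to 60.5) were gained. With 3-hour origins of at least 0.85 efficiency alone, the lost share was 9.87% and the gained share 38.4%. Splits fell to 48 when the overlap had to cover at least 50% of the shorter origin. Measured in DNA, the 3-hour list consisted of 7.22 Mb already called at 15 minutes (30.7%), 5.51 Mb added around paired origins (23.5%) and 10.8 Mb in gained origins (45.8%). Much less DNA went the other way. Lost origins held 0.255 Mb, and 0.429 Mb of the paired 15-minute origins was no longer called at 3 hours.

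In the 1 to 1 pairs both borders moved by similar small steps. The left border moved outward by 256 bp on average (SD 488, n = 9252 pairs) and the right border by 249 bp (SD 465), each with a median of 200 bp. Both borders moved outward in 60.9% of pairs, 1 moved outward while the other stayed in 21.3%, and neither moved in 2.49%. In 11.5% of pairs 1 border moved outward and the other inward, and in 3.82% none moved outward and at least 1 moved inward. Moves of at least 1 kb were uncommon, at 5.14% of left and 4.98% of right borders. The growth of the 2 sides of a pair was only weakly related (Spearman rho = 0.15 across 9252 pairs, which share libraries and a 100 bp grid). The largest gains of length were at the starts of SLC25A22 and its neighbours CEND1 and PANO1 (chr11:797201-798600 became chr11:786701-802600), where the origin grew by 14500 bp, and at CRIP2, which encodes a LIM-domain protein, where it grew by 11600 bp. At the other extreme, origins inside NFIB and USF2, both transcription factor genes, shortened by 1500 and 1400 bp.

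Around protein-coding gene starts growth was not symmetrical. The 3984 pairs used here held exactly 1 coding start at 15 minutes (the start of the Ensembl canonical transcript in GENCODE 44) and had no start on the opposite strand within 2 kb of the 3-hour origin. The downstream border, in the direction of transcription, moved outward by 258 bp on average (SD 461) and the upstream border by 166 bp (SD 341). The downstream side grew further in 2008 pairs, the upstream side in 1269, and 707 grew equally, so that 61.3% (59.6 to 62.9) of the unequally grown pairs grew further downstream. The tail of long moves was longer downstream as well: 189 downstream borders (4.74%) but 89 upstream borders (2.23%) moved by at least 1 kb. Conversely 413 upstream borders (10.4%) and 294 downstream borders (7.38%) moved inward. The share was 60.2% for plus-strand and 62.4% for minus-strand genes, and the mean difference between sides was 92.1 bp. That mean was 50.3 bp with every transcript start of the gene inside the 15-minute origin.

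**Figure D1:**
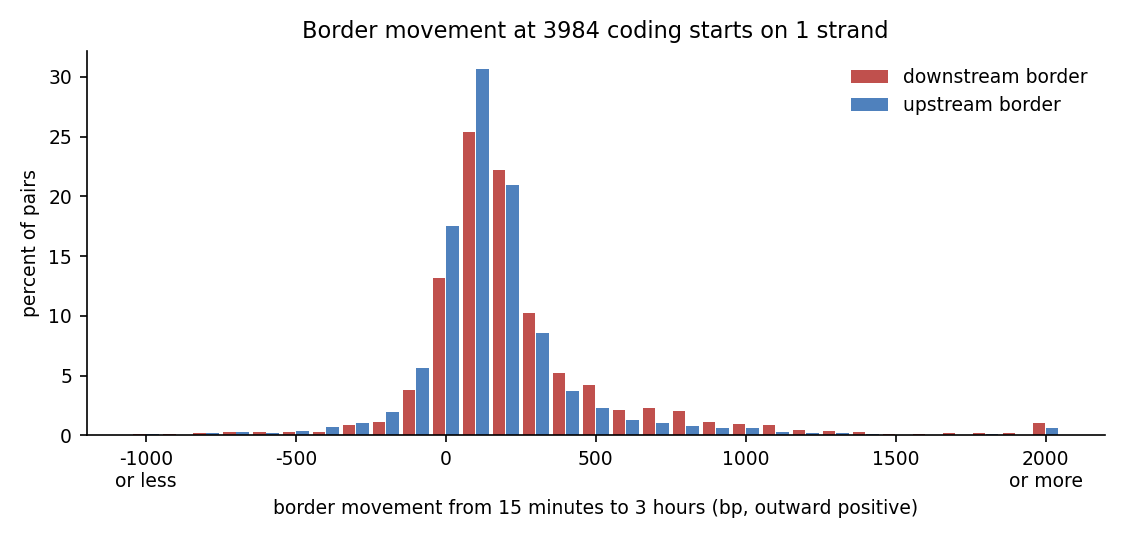
Movement of the downstream (red) and upstream (blue) border of origins at 3984 coding starts, in bp on the x axis (outward positive, 100 bp steps, ends pooled), against the percent of pairs on the y axis. Both distributions peak at 100 bp, where they hold 25.4% and 30.6% of pairs, and downstream bars are taller at every step from 200 bp to 1300 bp.

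The origin already lay unevenly about the start at 15 minutes. Its downstream border was a median of 482 bp from the start (quartiles 330 and 689) and its upstream border 236.5 bp (137 and 384). By 3 hours the medians were 687 and 373 bp, so the extra growth downstream widened an offset that was present at the earlier time. In 177 of the 3984 pairs (4.44%) trimming had left the start itself outside the 3-hour origin. The shortest origins grew most unequally: among 15-minute origins of at most 400 bp, 70.7% (66.3 to 74.9) of unequal pairs grew further downstream, against 57.4% (54.0 to 60.8) among those over 1 kb.

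Where a start faced another on the opposite strand, the 2 sides were close to even. In these 1727 pairs 51.2% (48.6 to 53.8) grew further downstream, an interval that includes 50% and lies below that of starts on 1 strand. Pairs over a coding exon or UTR that held no canonical coding start gave 60.1% (57.1 to 63.0, 1246 pairs) when turned along the gene. Pairs in introns gave 57.0% (50.4 to 63.4, 257 pairs). Pairs at starts of long non-coding RNA genes gave 50.4% (44.3 to 56.4), and outside genes the right side grew further in 50.8% (46.0 to 55.5). Positions other than coding starts were read from the 3-hour origin, without the limit on opposite-strand starts. Origins beside a coding start, or over the start of another transcript, could fall among them. Read from the 3-hour origin with that limit, coding starts on 1 strand gave 57.3%. When the 3-hour list was cut into 3 classes of equal size by efficiency, the share of HL reads, starts in the upper class gave 59.2% (57.2 to 61.1), those in the middle class 67.5% (64.0 to 70.9) and those in the lowest 67.6% (55.7 to 78), the last from 76 pairs. Efficiency is taken over the whole 3-hour interval, added DNA included, so these classes are not independent of growth.

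**Figure D2:**
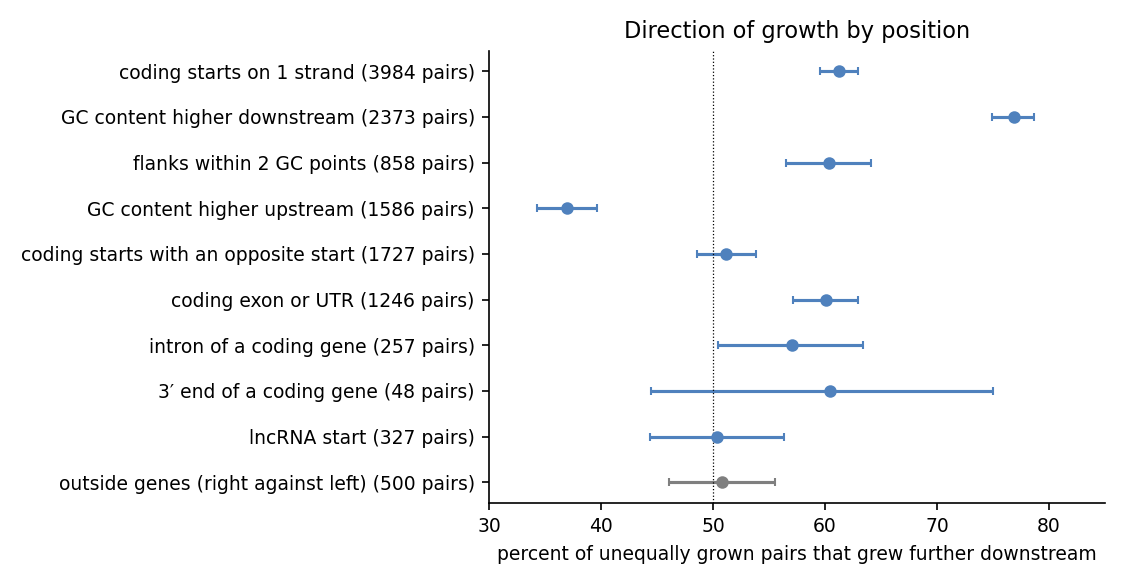
Percent of unequally grown pairs in which the downstream border moved further (x axis) by the position of the 15-minute origin, with exact 95% intervals as bars and the dotted line at 50%. Coding starts on 1 strand stood at 61.3%, and they ranged from 36.9% to 76.9% with the side on which GC content was higher.

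GC content moved with the direction. The GC content of the 1 kb beyond each 15-minute border was higher downstream in 2373 of the 3984 pairs (59.6%), and there 76.9% (75 to 78.7) grew further downstream. Where it was higher upstream, in 1586 pairs, 36.9% (34.3 to 39.7) did so. In the 858 pairs whose flanks differed by at most 2 percentage points, a limit chosen after the data were seen, the downstream share was 60.3% (56.5 to 64.1) and the mean difference 57.2 bp. The part of GC content in the direction was not tested beyond these values. The single sites with the largest difference show how far a border could move. At ADAM8, a metalloprotease gene on the minus strand of chromosome 10, the origin at chr10:133276401-133277400 grew by 9300 bp downstream and 500 bp upstream. At COL9A3 it grew by 5100 and 300 bp. At JAG2 it grew by 6200 bp downstream while its upstream border receded by 1200 bp, past the start. The opposite pattern was strongest at TMEM52, with 5000 bp upstream and 600 bp downstream. DNLZ, a gene for a mitochondrial chaperone partner, followed with 4200 and 200 bp, and SAP25, a gene for a component of the Sin3 co-repressor complex, with 4700 and 800 bp.

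Along the chromosomes no direction stood out. The right border moved further in 49.1% (47.9 to 50.2) of unequally grown pairs, the border facing the nearer chromosome end in 49.3% (48.2 to 50.4), the border facing the nearer 15-minute origin in 50.4% (49.2 to 51.5) and the border facing the nearer 3-hour origin in 51.2% (50 to 52.3). The right share was above 50% on 8 of 23 chromosomes and lay between 44.7% and 54.4%. The downstream share at coding starts was above 50% on all 23 and lay between 51.6% and 67.1%. The mean difference downstream minus upstream was above 0 on 22 of 23; on chromosome 13 it was −2.67 bp over 75 pairs. Over all pairs the side of higher GC content grew further in 72.3% (71.3 to 73.3), and this share went from 62.3% where the flanks differed by up to 5 percentage points to 79.3% at 5 to 10 and 87.4% at 10 to 20 points. The DNA added to paired origins had a mean GC content of 64.1% (SD 5.69, n = 14304 flanks), between that of the 15-minute origin it was attached to (74%) and that of the same length of DNA beyond the new border (54.5%). It was richer than the DNA beyond in 88.4% (87.8 to 88.9) of flanks that differed.

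Merging was most frequent across short gaps. The smallest gap in either list is 600 bp, since the caller joined windows within 500 bp. Of neighbouring 15-minute origins 600 bp apart, 41 of 51 (80.4%, 66.9 to 90.2) lay in 1 origin at 3 hours. The share was 67.0% at 700 to 1000 bp, 30.5% at 1.1 to 2 kb, 4.25% at 2.1 to 5 kb and 0.729% (4 of 549) at 5.1 to 10 kb. Of the 165 merges 155 joined 2 origins and 10 joined 3, and 125 held a coding start. Merges numbered 17 with 15-minute origins of at least the median Z-score and 68 with origins of at least 500 bp. The filled gaps had a lower GC content than the origins beside them in 164 of 165 merges, with medians of 63.6% and 73.1%. At WNT11, a Wnt ligand gene, 3 origins between 76206301 and 76210900 on chromosome 11 became 1 of 5300 bp. At IRX5, a homeobox gene, 3 became 1 of 5200 bp (chr16:54928401-54933600 at 3 hours). At STX10 and IER2, the latter an immediate early gene, 3 became 1 of 6700 bp, and at the mucin gene MUC5B 3 became 1 of 9700 bp.

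Splits had the reverse composition. The 87 split origins had a median length of 1700 bp, and 68 held a coding start. The DNA that dropped out between the pieces had a median GC content of 79.4%, against 71.6% in the pieces, and was the richer of the 2 in 72 of 87 splits and the poorer in 14. At IRS2, an insulin receptor adaptor gene, an origin of 5800 bp (chr13:109782101-109787900) became 2 with efficiencies of 0.967 and 0.956, either side of 800 bp with a GC content of 76.1%. At SKI the gap was 900 bp long and had a GC content of 87.8%. CUX1, a homeobox gene, went from 1 origin of 3800 bp to 3, with an overall gap GC content of 68.2%, below that of the pieces (76.1%).

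Lost origins were short and rich in GC. Their median GC content was 76.6% (quartiles 73.0 and 79.2), against 74% (71.9 and 76.2) in 15-minute origins that were kept. The lost share was lowest between 70% and 72% GC, at 2.27% (1.61 to 3.12), and reached 10.8% (8.70 to 13.2) between 78% and 80% and 29.4% (24.2 to 35.1), 83 of 282, above 80%. It was also above the lowest value at the other end, at 7.55% (4.90 to 11.0) up to 68% GC. The share of paired origins with a border that moved inward followed the same course, from 12.2% between 72% and 74% GC to 31.0% above 80% and 31.9% up to 68%. Merging was most frequent at the low end, with 5.03% of origins up to 68% GC, and least frequent above 80%, with 0.709%. Trims of at least 300 bp had a higher GC content than the DNA that stayed in 265 of 442 cases (60.0%, 55.2 to 64.6), whereas shorter trims had in 29.3% (26.6 to 32.2) of 1064.

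**Figure D3:**
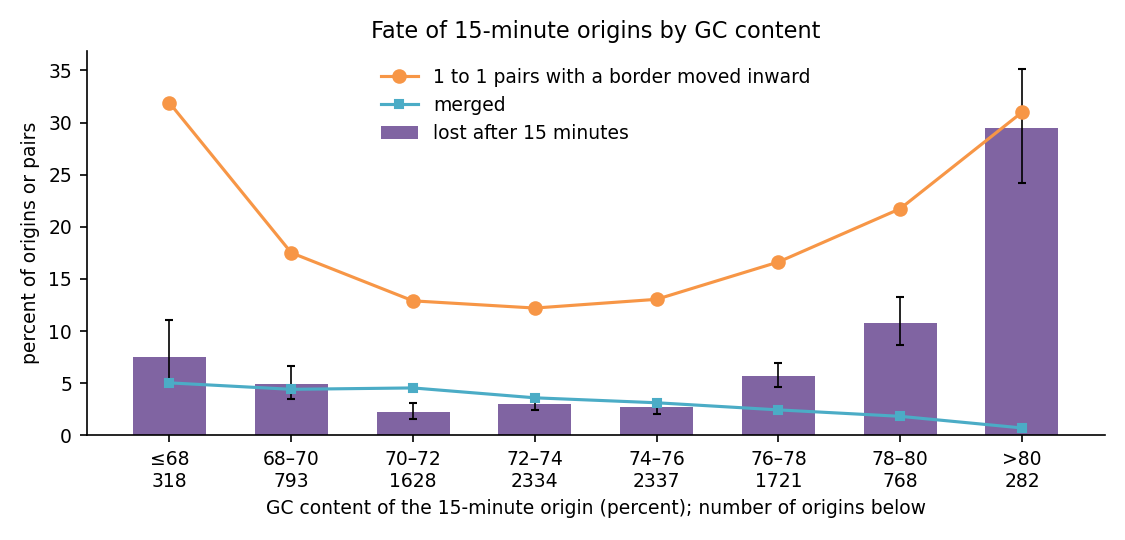
Fate of the 10181 15-minute origins by their GC content (x axis, number of origins under each class). Bars give the percent lost with exact 95% intervals, circles the percent of 1 to 1 pairs with a border moved inward, and squares the percent merged; loss reached 29.4% above 80% GC, where 0.709% were merged.

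Of origins 300 bp long 11.8% (10.1 to 13.6) were lost, and of those of at least 1300 bp 0.761% (0.366 to 1.40). Origins above 80% GC, lost or kept, had a median length of 600 bp, against 700 bp between 72% and 80%. Their 15-minute Z-score had a median of 1.60. When all origins were cut by score into 10 classes of equal size, the top class lost 7.87% of its origins against 3.27% to 5.89% in the others. Loss was not split by length, score and GC content together, so their separate parts were not tested. The 5 highest scores among lost origins lay at the start of SLC7A5, which encodes an amino-acid transporter, outside genes on chromosome 19, at the starts of BEND7 and of TLK2, which encodes a chromatin assembly kinase, and by PNCK and SLC6A8 on chromosome X. Among kept origins with the highest scores, that of LRP5, a Wnt co-receptor gene, lengthened from 1000 to 1500 bp and that of USP12, a deubiquitinase gene, from 1100 to 1400 bp, while that of VKORC1L1 shortened from 800 to 400 bp. A lost origin was a median of 27.8 kb from the nearest 3-hour origin, and 83 of 498 were within 1 kb of one.

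Loss was also concentrated in parts of chromosomes. Chromosome X stood apart, with 44 of 226 15-minute origins lost (19.5%), a median growth of 0 bp and the smallest gained share of the chromosomes with 15-minute origins, 37.2% (31.7 to 43.0). Next came chromosome 18 with 9.60% lost, chromosome 16 with 9.43%, chromosome 10 with 8.81% and chromosome 8 with 8.07%, against 1.56% to 5.52% on the others. In windows of 20 Mb holding at least 20 15-minute origins, 146 in all, the median lost share was 3.55%. No origin was lost in 20 windows and at least 10% in 20 others, which held 183 of the 480 lost origins in these windows. All 5 windows on chromosome X were among the latter.

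Within single chromosomes the windows differed in steps. On chromosome 10 the first 20 Mb lost 10 of 45 origins (22.2%, 11.2 to 37.1) and the next 20 Mb lost 9 of 38, and 5.26% and 8.82% of the 3-hour origins there were gained. Between 60 and 80 Mb of the same chromosome 1 of 75 was lost and 57.3% were gained. On chromosome 8 the first 40 Mb lost 10 of 41 and 10 of 69 origins with 13.5% and 14.7% gained, whereas the window from 140 Mb lost 1 of 116 with 68.3% gained. On chromosome 9 the first 20 Mb lost 7 of 32 and gained 1 of 26 (3.85%), and the window from 120 Mb lost 5 of 240 with 70.6% gained. On chromosome 16 the first 20 Mb lost 32 of 200, and the window from 40 to 60 Mb lost 0 of 57 (0 to 6.27). In the windows of low gain the borders of paired origins also moved inward more often, in 61.8% and 59.3% of pairs on chromosome 10, 63.3% and 56.1% on chromosome 8 and 64.0% on chromosome 9. The paired 3-hour origins there had median efficiencies of 0.976, 0.967, 0.972, 0.968 and 0.969, against 0.934 between 60 and 80 Mb of chromosome 10. The 15-minute origins of the 5 windows had median GC contents of 75%, 73.2%, 74.3%, 75.2% and 72.3%, against 73.7% in that window of chromosome 10. On chromosomes 8, 10, 16, 18 and X together 8.26% (6.95 to 9.74) of origins of at most 78% GC and 27.8% (21.4 to 34.9) of richer ones were lost, and on the others 2.68% (2.33 to 3.07) and 13.3% (11.1 to 15.8). What set these windows apart was not tested.

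**Figure D4:**
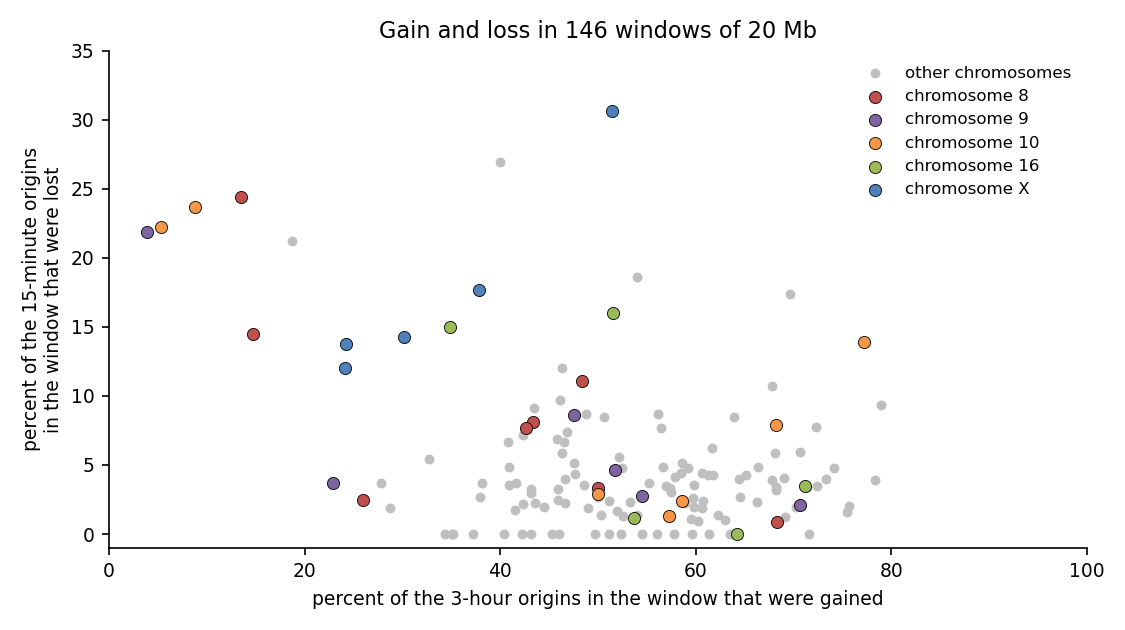
Percent of 15-minute origins lost (y axis) against percent of 3-hour origins gained (x axis) in 146 windows of 20 Mb, each point 1 window. The first 20 Mb of chromosomes 8, 9 and 10 sit at the upper left with 24.4%, 21.9% and 22.2% lost and under 14% gained.

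Gained origins were the larger group and were of a different kind. The median GC content of gained origins was 65.1% (quartiles 62.7 and 67.3), against 70.3% (68 and 72.6) in kept origins as called at 3 hours. CpG island criteria (GC content over 50% and a ratio of observed to expected CG above 0.6) were met by 30.5% (29.7 to 31.3) of gained and 88.2% (87.6 to 88.9) of kept origins. A G-quadruplex motif on either strand, meaning 4 stretches of 3 or more G parted by 1 to 7 bases, lay in 60.1% of gained and 87.3% of kept origins, whose median lengths were 500 and 1100 bp. Purines made up at least 80% of the bases of 1 strand in 674 gained origins (4.71%, 4.37 to 5.07), in 4 kept origins and in none of the 498 lost ones. Peaks of short nascent strands, an independent map of origins in the same cells, overlapped 86.1% of gained, 99.9% of kept and 98.8% of lost origins when either size fraction counted. With peaks in both fractions the shares were 63.4%, 99.0% and 95.2%. The overlap to be had by chance was not computed, and kept origins were longer.

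Their place relative to genes differed too. Of 3-hour origins that held a coding start on 1 strand 28.5% (27.5 to 29.6) were gained, and of those holding opposite starts 23% (21.2 to 24.8). The share was 50.1% at starts of long non-coding RNA genes, 69.5% over 3′ ends of coding genes, 75.1% in coding exons or UTRs, 91.1% (90.0 to 92.0) in introns and 85.5% outside genes. The gained origins were a median of 29.7 kb from the nearest 15-minute origin, with 24.9% within 10 kb and 22.5% over 100 kb away. Those 100 to 200 kb away had a median efficiency of 0.847, those 200 to 500 kb away 0.855 and those beyond 500 kb 0.869. The median was 0.843 within 1 kb, 0.831 to 0.834 between 1 and 50 kb, and 0.843 at 50 to 100 kb.

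Near coding starts gained origins were more often centred downstream. Among 9870 coding starts on 1 strand outside 15-minute origins, 18.7% had a gained origin centred within 2 kb downstream and 6.95% within 2 kb upstream. These counts include gained origins that cover the start itself, which was so at 1812 starts. Between 2 and 5 kb the shares were 3.94% downstream and 3.48% upstream. Among 4508 starts inside a 15-minute origin the shares within 2 kb were 1.44% downstream and 1.11% upstream. A gained origin overlaps no 15-minute origin by definition, so these are not comparable with the shares at starts outside. Between 5 and 10 kb from the held starts 451 had one downstream and 353 upstream. Over all 14378 starts an origin covered the start itself in 31.4% at 15 minutes and 45.5% at 3 hours, a ratio of 1.45. At 1 kb the percentages were 3.99% and 11.8% downstream and 1.21% and 4.74% upstream. At 2 kb they were 0.709% and 3.67% downstream, a ratio of 5.17, and 0.529% and 2.34% upstream, a ratio of 4.42.

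**Figure D5:**
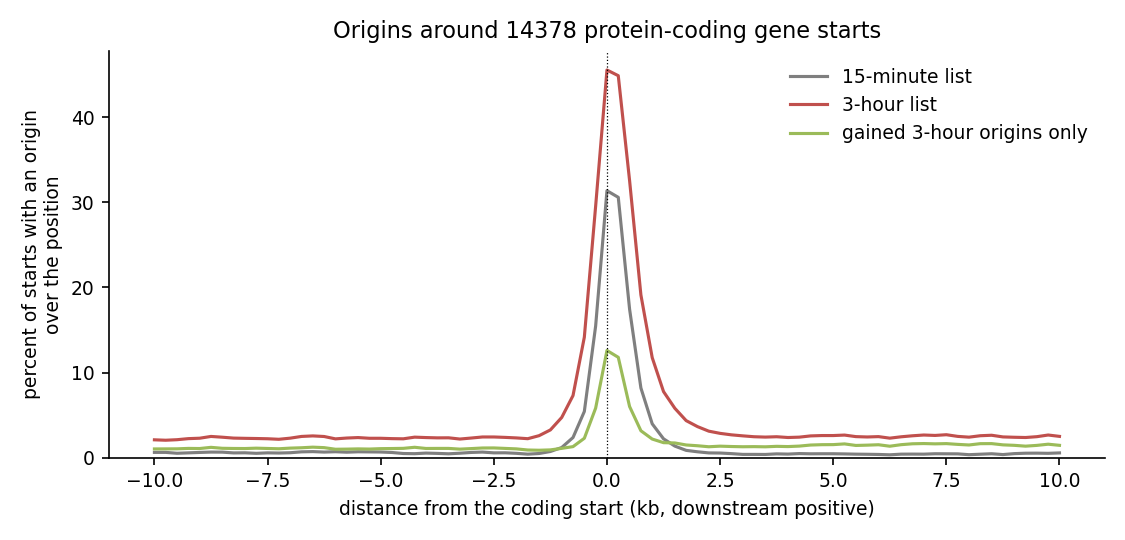
Percent of 14378 protein-coding starts without an opposite start within 2 kb that had an origin over each position (y axis) against the distance from the start in kb (x axis, downstream positive). The curve rose from 31.4% to 45.5% at the start, and gained origins lay over 12.6% of all starts. Both lists were higher downstream than upstream at 1 kb. At 3000 bp the 15-minute list was higher upstream (0.633% against 0.403%) and the 3-hour list downstream (2.58% against 2.32%).

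Gain was uneven between and along chromosomes. Chromosomes 19 and 22 had gained shares of 69.8% each (67.9 to 71.6 and 66.7 to 72.7) and chromosome 21 of 69.0%, while chromosome 15 had 48.8% (44.9 to 52.7). By distance from the nearer chromosome end, the share was 71.2% (69.2 to 73.2) at 1 to 2 Mb and 72.1% (70.4 to 73.7) at 2 to 5 Mb, and 52.3% (50.7 to 53.8) beyond 50 Mb. The outermost 1 Mb gave 63.8% (61.3 to 66.3). The median growth of paired origins was 500 bp in the outermost 1 Mb, 600 bp at 1 to 2 Mb and 300 bp beyond 10 Mb, so both kinds of increase were larger towards the ends. The mean growth was 1088 bp at 1 to 2 Mb and 408 bp beyond 50 Mb.

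Clusters of origins covered more of the genome at 3 hours. Domains, runs of 6 or more origins with gaps of up to 100 kb, numbered 270 at 15 minutes and 699 at 3 hours and spanned 97.3 and 306 Mb. With at least 3 origins they numbered 857 and 1527, and with gaps of up to 50 kb the 15-minute list gave 158. All but 1 of the 15-minute domains lay in or over a 3-hour domain, and 34 of the 3-hour domains each joined several, 86 together. Of the 699, 481 held no 15-minute domain, yet 16 only held no 15-minute origin at all. The gained share was 55.7% (54.6 to 56.9) inside 15-minute domains and 61.6% (60.9 to 62.3) outside. These domains were picked for their 15-minute origins, which a gained origin does not overlap. A lower share inside is therefore partly fixed by definition, and no conclusion is drawn from it. The largest 3-hour domain spanned chr19:267101-5995600 with 642 origins, of which the 15-minute list gave 205.

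Sets of genes were read against all 20033 protein-coding starts, of which 34.2% lay inside an origin at 15 minutes and 50.9% at 3 hours. The sets were chosen with earlier results of these data known and are a description. Of 51 genes for pre-replicative complex and replication fork proteins, 15 starts were inside an origin at 15 minutes (29.4%, 17.5 to 43.8) and 36 at 3 hours (70.6%, 56.2 to 82.5). The first interval includes the share of all coding starts at its time and the second lies above it. Within 1 kb of an origin 21 of the 51 were counted at 15 minutes and 40 at 3 hours. CDT1, which loads the helicase, had an origin of 1800 bp at 15 minutes and 1900 bp at 3 hours. DBF4, the activating subunit of the CDC7 kinase, had 600 and then 800 bp, and GINS2, a subunit of the active helicase, 500 and then 700 bp. CLSPN, a checkpoint mediator, had 800 and then 700 bp. CDC45, FEN1, MCM3 and MCM5 were among the 21 starts held at 3 hours only, with efficiencies of 0.844, 0.845, 0.885 and 0.894. The starts of the other 15 genes, CDC6 and CDC7 among them, were inside no origin at either time.

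Of 30 immediate early genes 15 starts were held at 15 minutes (interval 31.3 to 68.7%) and 26 at 3 hours (86.7%, 69.3 to 96.2), with BTG2 and DUSP1 among the former and ATF3 and FOS among the 11 added. A start held at 3 hours only need not lie in a gained origin. The start of IER2 entered through the merge described above, and those of FOS and JUN through merges too. At FOS a 15-minute origin, chr14:75278401-75278800, ended just short of the start at 75278828. Within 1 kb of an origin 21 of the 30 were counted at 15 minutes and 28 at 3 hours. Of 21 glycolytic enzyme genes 12 were held at 15 minutes and 14 at 3 hours. ENO3 and LDHA were the 2 added, and the origin at GAPDH lengthened from 700 to 2700 bp while that at ALDOA stayed at 1300 bp and lay 200 bp further left. Of 19 Wnt ligand genes 11 and then 13 were held, and WNT4, with an origin of 1400 bp and a Z-score of 2.30 at 15 minutes, was not inside an origin at 3 hours. Of 18 genes for enzymes of the tricarboxylic acid cycle 9 and then 13 were held, and of 31 proteasome genes 8 and then 16. Cytosolic aminoacyl-tRNA synthetase genes went from 4 to 13 of 20, so 9 were added, AARS1, CARS1, EPRS1 and FARSA among them, with efficiencies from 0.827 to 0.895. Within 1 kb of an origin 7 of the 20 were counted at 15 minutes.

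The remaining sets held genes of particular tissues. Of 20 urothelial differentiation genes 4 were held at 15 minutes and 9 at 3 hours, and of 24 cadherin and neuronal adhesion genes 7 and 9. The intervals of these 2 sets include the share of all coding starts at both times. In the latter, CNTN3 and CNTN4, genes for contactins, had an origin over the start at 15 minutes only. None of 24 genes for albumin and clotting proteins was held at either time (upper limit 14.2%; within 1 kb of an origin 1 at 15 minutes and 2 at 3 hours), and none of 400 olfactory receptor genes (upper limit 0.918%).

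The value attached to an origin carried over in part. The 15-minute Z-score and the 3-hour efficiency are on different scales, so that their order alone can be compared. Over the 9252 pairs Spearman's rho was 0.39, and the median efficiency was 0.899 in the lowest and 0.949 in the highest of 10 classes by Z-score. Origins of higher efficiency at 3 hours had grown less (rho = −0.63), whereas the Z-score was hardly related to growth (rho = −0.08). Efficiency is computed over the whole 3-hour interval, the added DNA included, so efficiency and growth are not independent measures. Length at 15 minutes and at 3 hours gave rho = 0.59. These correlations are across origins of 1 pair of lists, which share libraries and the caller, and are given as descriptions.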

How the data were processed

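For both ini-seq 2 lists, per the labels and the study's methods, the authors aligned HL and LL reads to hg38 with Bowtie2 and counted them in 100 bp windows. Counts were normalised to the total reads of each library. Windows whose log2 ratio of HL to LL reached 2 were joined across up to 500 bp, and an interval was kept when HL made up at least 0.8 of its normalised HL and LL reads. The value the authors deposited at 3 hours is this efficiency, a fraction of reads, although its heading calls it a Z-score. The value deposited at 15 minutes is a score, standardised over the list to a mean of 0 and an SD of 1 (Z-score). The authors called the SNS-seq peaks, for which only positions were used, with MACS2. No deposited list holds counts, so the depth behind a single origin is unknown.

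Lists were compared in Python 3.11.15 (pandas 2.3.3, scipy 1.17.1) with the hg38 sequence (pysam 0.24.0) and GENCODE 44. CpG island criteria were applied to each origin's own sequence. Pairs, borders, domains and distances followed the definitions given with each result; the pairing and direction code was tested on simulated lists. Sites named were the 5 most extreme by each measure (merges, splits, growth to either side, gain and loss of length, efficiency of gained and score of lost and kept origins) and up to 4 per gene set and class in alphabetical order. Members and lists were chosen with earlier results of these data known. The alternatives tried were another overlap rule, efficiency and score limits, other choices of gene start and of domains, and leaving out chromosomes. The genomic DNA input was not analysed here.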

Additional observations from a re-analysis of the deposited data

How the results depend on the processing

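Of 96 values recomputed under another setting, 67 stayed within the interval or the spread over chromosomes of the reported value, or within 1.5 times for counts, and 29 moved further. A reversal could be recorded only for direction at gene starts, the GC difference of added DNA, and the rho of score and efficiency. None of those values reversed. The share of coding starts on 1 strand that grew further downstream stayed above 50% in all settings. It was 56.9% with every transcript start of the gene inside the 15-minute origin, 57.3% with the start taken from the 3-hour origin, and 58.2% with no limit on opposite-strand starts; the shift of the centre gives the same share by construction, with a mean of 46.0 bp. The share growing to the right lay between 49.0% and 49.3%.

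The lost share depended on the pairing rule and the lists. It was 6.01% when the overlap had to cover at least 50% of the shorter origin, where 48 splits were left, 4.30% within 500 bp, 9.87% with 3-hour origins of at least 0.85 efficiency alone, and, in settings chosen after seeing the data, 3.78% without chromosomes 8, 10, 16, 18 and X, 3.64% for origins of at most 78% GC, and 5.49% for origins of at least 500 bp, with 68 merges and 48 splits. The gained share was 38.4% at an efficiency of at least 0.85, since that limit removes 3-hour origins, 79.6% against 15-minute origins with a Z-score of at least the median, where 17 merges were left, and 60.7% without the 5 chromosomes.

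Domains numbered 158 at 15 minutes when joined within 50 kb, with 81.8% of 3-hour domains holding none, and 857 and 1527 with at least 3 origins, with 55.0%. With coding starts within 1 kb, 77.8% of kept, 23.2% of gained and 54.0% of lost origins were at a start, and 41.4% of all starts were reached at 15 minutes and 58.5% at 3 hours, against 70.7%, 17.8% and 37.8%, and 34.2% and 50.9%, inside origins. The lists give no read counts per origin, so an origin absent from a list may have been below its detection limit, and no paired analysis was possible because each time has 1 list.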
